A study of Mus musculus with 6 samples.

Results

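The genes described here encode the renin-angiotensin-aldosterone system and the membrane and secreted peptidases that make, trim or bind angiotensin peptides. They were chosen by symbol from a list of 10, namely Lnpep, Agtr1a, Ace, Agt, Nr3c2, Mme, Enpep, Anpep, Atp6ap2 and Rnpep. All 10 were found, 1 row each, among the 13384 genes of the deposited count table. Polyadenylated RNA was sequenced from left ventricles of adult mice, 3 of which lacked cytoglobin in all cells (Cygb(-/-), KO) and 3 of which were wild-type littermates (WT), each mouse giving 1 library. All 6 mice carried an osmotic pump under the skin that delivered angiotensin II at 1.5 mg/kg/day for 2 weeks, so both genotypes were measured under the peptide whose receptors and peptidases these genes encode. The comparison is of the genotypes under angiotensin II, with and without cytoglobin, a globin of fibroblasts and vascular wall cells. Age in weeks is not given in the labels, and mice without angiotensin II were not analysed here, so a genotype difference in the response to the peptide and one present before it cannot be told apart.

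In this system renin releases angiotensin I from angiotensinogen, and angiotensin-converting enzyme trims it to angiotensin II, which raises vascular tone and drives cardiac hypertrophy through its type 1 receptor. Aminopeptidases shorten angiotensin II from its amino end, neprilysin cuts within angiotensin peptides, and aldosterone acts downstream through the mineralocorticoid receptor. In the heart the receptor is known mainly from fibroblasts and mural cells, and converting enzyme mainly from endothelium.

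The peptide at the centre of the system is written in Agt, on mouse chromosome 8. Its reading frame in the GENCODE M21 transcript (GRCm38) holds 482 codons, and codons 30 to 39 encode angiotensin I. The capitals mark the 24 bases that encode angiotensin II, and the lower-case bases encode the end that converting enzyme removes.
Agt: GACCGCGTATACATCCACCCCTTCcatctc

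The peptidases among the 10 genes share the zinc-binding motif HEXXH of metallopeptidases (X is any residue), which the gene list did not use. Lnpep, Enpep, Anpep, Rnpep and Mme each held it 1 time in the longest reading frame, and Ace held it 2 times, in the catalytic domains near either end. The stretches below show the 15 bases of the motif in capitals with 15 bases on each side, from the same transcripts, so that the aminopeptidases can be set beside neprilysin and converting enzyme. The first codon of the motif was codon 464 in Lnpep, 385 in Enpep, 387 in Anpep, 325 in Rnpep, 584 in Mme, and 395 and 993 in Ace.
Lnpep: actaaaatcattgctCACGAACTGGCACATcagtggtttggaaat
Enpep: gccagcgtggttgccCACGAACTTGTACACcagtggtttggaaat
Anpep: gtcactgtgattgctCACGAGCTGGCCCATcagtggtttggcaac
Rnpep: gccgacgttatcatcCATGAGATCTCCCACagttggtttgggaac
Mme: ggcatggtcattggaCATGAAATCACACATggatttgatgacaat
Ace, first motif: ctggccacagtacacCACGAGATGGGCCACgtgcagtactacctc
Ace, second motif: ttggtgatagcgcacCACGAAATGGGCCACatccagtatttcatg

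Library totals ran from 23190864 to 25002634 counts in KO and from 24725110 to 30354857 in WT, and the 10 genes had between 100 counts (Agt, KO replicate 1) and 3377 counts (Ace, WT replicate 2) per library. The 8 cardiomyocyte markers listed were all measured, with a summed level of 56640 to 67200 CPM (counts scaled to the TMM-adjusted library size) in KO and 56250 to 74450 CPM in WT. Summed atrial markers ran from 507.3 to 582.9 CPM in KO and from 727.3 to 3093 CPM in WT, and summed mesothelial markers from 21.56 to 27.72 CPM in KO and from 31.19 to 58.99 CPM in WT. The groups did not overlap in either sum. Of 6 atrial markers 5 were measured, all lower in KO (median log2 fold change -2.86), and of 5 mesothelial markers 4 were lower and 1 higher. None passed edgeR's test. DESeq2 called 1 atrial and 2 mesothelial markers lower, against 2.03% of all genes, and limma-voom called none. The part of such tissue in the levels of the 10 genes was not tested. Libraries also differed in a trend on transcript GC content. Per 10 percentage points of GC, the log2 level moved by -0.185, -0.0575 and -0.134 in KO replicates 1, 2 and 3, and by 0.288, -0.100 and 0.189 in WT replicates 1, 2 and 3. WT replicates 1 and 3 thus leaned to GC-rich transcripts, and WT replicate 2 lay within the KO range. This touches most of the genes below, so each of the 10 genes' fold changes is set beside its value with each library's GC content and length trend removed. The labels alone give the genotype, since Cygb itself was not analysed here.

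Lnpep was the 1 gene of the 10 to pass edgeR's test over all genes, and it was higher in KO ventricles. It encodes insulin-regulated aminopeptidase, the binding site of angiotensin IV, a membrane enzyme that travels with the glucose transporter GLUT4 and also cleaves oxytocin and vasopressin. Its level was 70.6, 44.2 and 66.4 CPM in KO replicates 1, 2 and 3, against 24.9, 32.6 and 23.0 CPM in WT replicates 1, 2 and 3. Every KO library lay above every WT library, and the closest were KO replicate 2 and WT replicate 2. The means were 60.4 ± 14.2 CPM in KO and 26.9 ± 5.10 CPM in WT (SD, n = 3 each), a 2.25-fold rise (log2 fold change 1.17, SE 0.19, 95% interval 0.76 to 1.58, edgeR quasi-likelihood adjusted p = 0.0378), and the gene ranked 14 of 13384 by p. In all, 12 genes were called higher, 0.0897% of those tested, and 3 were called lower, 0.0224%, or 0.112% in either direction. Thus 1 of 10 is more than the background, but the 10 genes were chosen with these results known.

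The size and the call of the Lnpep rise depended on the processing and on single libraries. With the GC content and length trend removed its level was 60.3, 41.3 and 53.5 CPM in KO replicates 1, 2 and 3, against 31.0, 30.9 and 30.5 CPM in WT replicates 1, 2 and 3. The WT libraries then lay close together, the groups still did not overlap, and the rise was 1.68-fold (log2 0.75, SE 0.13, edgeR adjusted p = 0.0468), in a fit that called 0.179% of all genes higher and 0.134% lower, or 0.314% in either direction. Without KO replicate 1 the edgeR adjusted p was 0.142, without KO replicate 3 it was 0.202, without WT replicate 1 it was 0.0900 and without WT replicate 3 it was 0.116, with log2 fold changes of 1.04 to 1.12. Without WT replicate 2 Lnpep was again the 1 call among the 10 (edgeR adjusted p = 0.00459), where 7.25% of all genes were called higher and 6.39% lower, or 13.6% in either direction. Lnpep passed in 9 of 17 alternatives, of which 2 could not fail, since no filter on low counts gave the same fit and a threshold of 0.1 is laxer. Its log2 fold change ran from 0.73 to 1.35 over the 17.

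Lnpep lies on chromosome 17 from 17521410 to 17625050 (minus strand, GRCm38, GENCODE M21), with 18 exon blocks and a longest transcript of 12052 bases at 40.3% GC. That transcript is the longest of the 10. Promoters were searched on both strands for the GC box GGGCGG, the CCAAT box CCAAT and the TATA box TATAAA in a RefSeq table (GRCm38.p6), from 250 bases before to 50 bases after each start. Among all 32851 promoters listed there, 35.7% held the GC box, 37.4% the CCAAT box and 13.6% the TATA box. Of the 10 genes, 9 had a promoter entry. The RefSeq start of Lnpep lies downstream of the GENCODE start, and its window falls within the GENCODE bounds of the gene. The GC box was found for Lnpep, Rnpep, Anpep, Nr3c2, Atp6ap2, Mme and the upstream start of Ace. The TATA box was found for Agt, Enpep and the same start of Ace, and the CCAAT box for Enpep, Nr3c2, Atp6ap2, Mme and the other start of Ace. The percentages are of single windows, whereas Mme, which has several starts, is named if any start matched. All of its starts held the GC box, but not all held the CCAAT box. The genes named are thus not set against the percentages. A match describes the letters in these windows only.

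**Figure D1:**
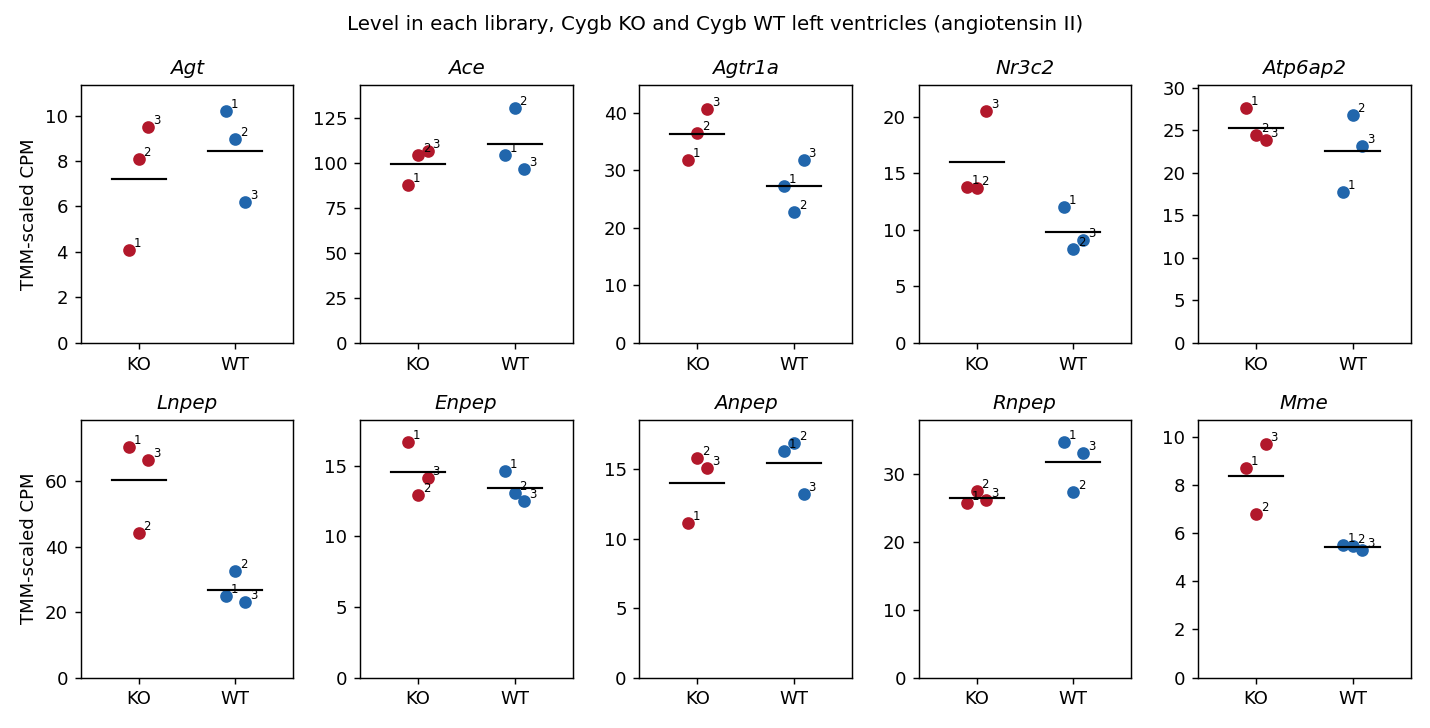
Level of each of the 10 genes (y axis, TMM-scaled CPM from 0) in each library, with Cygb KO left of Cygb WT in every panel; points are libraries numbered by replicate and bars are means of 3. The groups do not overlap for Lnpep, Nr3c2 and Mme, and they overlap for the other 7 genes.

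Agtr1a, the main type 1 angiotensin receptor gene of mice (chromosome 13, 30336441 to 30382867), had 31.7, 36.5 and 40.6 CPM in KO replicates 1, 2 and 3, against 27.3, 22.7 and 31.8 CPM in WT replicates 1, 2 and 3. The groups overlapped by the lowest KO and the highest WT library, which were nearly equal. Its means were 36.3 ± 4.42 CPM in KO and 27.2 ± 4.52 CPM in WT (SD, n = 3 each; log2 fold change 0.41, SE 0.16, 95% interval 0.08 to 0.75, edgeR adjusted p = 0.184), and the value was 0.37 with the GC content and length trend removed. Agtr1a did not pass in any of 17 alternatives (edgeR, DESeq2 or limma-voom adjusted p of 0.154 to 0.559). Agtr1b, the other type 1 receptor gene of mice, was not analysed here, and how reads that fit both genes were counted is not given. In the same libraries, most markers of cells known to carry the receptor had log2 fold changes below 0. Of 8 pericyte markers 6 were below 0, with a summed level of 690.5 to 733.7 CPM in KO and 700.2 to 842.1 CPM in WT. The pericyte marker Rgs5 was above 0, at 0.47, and was the 1 higher at an unadjusted edgeR p under 0.05. All 9 fibroblast markers were below 0, with sums of 2381 to 2695 CPM in KO and 2714 to 4264 CPM in WT, as were all 7 smooth muscle markers, with sums of 303.4 to 374.9 CPM in KO and 378.8 to 551.2 CPM in WT. No marker of these 3 lists passed edgeR's test. Unadjusted p was under 0.05 for 1 higher and 9 lower, against 10.2% and 8.94% of all genes. DESeq2 called 4 lower, against 2.03% of all genes, and limma-voom called none. The markers' part in the Agtr1a level was not tested. In such bulk tissue, fewer cells of a type and less RNA per cell cannot be told apart.

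Nr3c2 encodes the mineralocorticoid receptor, through which aldosterone acts on heart muscle and vessels (chromosome 8, 76899442 to 77245012). It had 13.8, 13.7 and 20.5 CPM in KO replicates 1, 2 and 3, against 12.0, 8.34 and 9.08 CPM in WT replicates 1, 2 and 3. Every KO library lay above every WT library, and KO replicate 3 stood highest. The means were 16.0 ± 3.90 CPM in KO and 9.80 ± 1.93 CPM in WT (SD, n = 3 each; log2 fold change 0.71, SE 0.20, 95% interval 0.27 to 1.15), and edgeR's test over all genes was not passed (adjusted p = 0.110). DESeq2 called it (adjusted p = 0.0342), in a test that called 4.71% of genes, and this was the 1 pass in 17 alternatives (adjusted p up to 0.473). With the trend removed the log2 fold change was 0.53 (edgeR adjusted p = 0.236), and the groups still did not overlap. Without KO replicate 3 it was 0.49 (edgeR adjusted p = 0.473).

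Agt, the angiotensinogen gene (chromosome 8, 124556534 to 124569706, minus strand), had the largest standard error of the 10. It was at 4.08, 8.07 and 9.48 CPM in KO replicates 1, 2 and 3, against 10.2, 8.96 and 6.19 CPM in WT replicates 1, 2 and 3. KO replicate 1 was lowest and the groups overlapped. The means of 7.21 ± 2.80 CPM in KO and 8.45 ± 2.05 CPM in WT gave a log2 fold change of -0.23 (SE 0.29, 95% interval -0.86 to 0.41, edgeR adjusted p = 0.695, n = 3 each). Without KO replicate 1 the value was 0.0568, and with the GC content and length trend removed it was -0.03.

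Ace, the converting enzyme gene (chromosome 11, 105967945 to 105989964), was the most abundant of the 10 and did not differ beyond the spread between replicates. It had 88.0, 104.4 and 106.7 CPM in KO replicates 1, 2 and 3, against 104.9, 130.9 and 96.9 CPM in WT replicates 1, 2 and 3. The groups overlapped, with WT replicate 2 highest. The log2 fold change was -0.15 (SE 0.14, 95% interval -0.46 to 0.15, edgeR adjusted p = 0.570, n = 3 each), and -0.10 with the GC content and length trend removed. The interval leaves room for a level in KO of 0.726 to 1.11 times that in WT. Of 9 endothelial markers 7 were below 0, with a summed level of 1385 to 1820 CPM in KO and 1616 to 1905 CPM in WT. None passed edgeR's test, and unadjusted p was under 0.05 for none higher and 3 lower, the latter against 8.94% of all genes. DESeq2 called 1 lower, against 2.03% of all genes, and limma-voom called none. The markers' part in the Ace level was not tested. Ace lies 10.7 Mb from Cygb on the same chromosome (RefSeq positions, GRCm38.p6).

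Mme encodes neprilysin, which also degrades natriuretic peptides and is a drug target in heart failure (chromosome 3, 63241537 to 63386030). It had 8.70, 6.78 and 9.70 CPM in KO replicates 1, 2 and 3, against 5.52, 5.47 and 5.31 CPM in WT replicates 1, 2 and 3. All KO libraries were above all WT libraries, and the WT values were nearly identical. The means were 8.39 ± 1.48 CPM in KO and 5.43 ± 0.109 CPM in WT (SD, n = 3 each; log2 fold change 0.63, SE 0.20, 95% interval 0.20 to 1.05, edgeR adjusted p = 0.128). Mme had the lowest GC content of the 10, at 38.0%. With the trend removed its levels were 7.25, 6.40 and 8.02 CPM in KO replicates 1, 2 and 3, against 7.08, 5.08 and 6.84 CPM in WT replicates 1, 2 and 3. The groups then overlapped, and the log2 fold change was 0.19 (SE 0.19, edgeR adjusted p = 0.685).

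Enpep encodes aminopeptidase A, which turns angiotensin II into angiotensin III (chromosome 3, 129269175 to 129332720, minus strand). It had 16.7, 12.9 and 14.1 CPM in KO replicates 1, 2 and 3, against 14.6, 13.1 and 12.5 CPM in WT replicates 1, 2 and 3, and the groups overlapped (log2 fold change 0.12, SE 0.16, edgeR adjusted p = 0.713). With the GC content and length trend removed its value was -0.0326. Anpep encodes aminopeptidase N, which takes angiotensin III to angiotensin IV (chromosome 7, 79821803 to 79861059, minus strand). It had 11.1, 15.8 and 15.1 CPM in KO replicates 1, 2 and 3, against 16.3, 16.9 and 13.2 CPM in WT replicates 1, 2 and 3 (log2 fold change -0.14, SE 0.18, edgeR adjusted p = 0.683). Its lowest library was KO replicate 1, without which the value was 0.0023. With the trend removed the value for Anpep was -0.09.

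Rnpep encodes aminopeptidase B, an enzyme that removes basic residues (chromosome 1, 135262712 to 135284084, minus strand). It had 25.7, 27.4 and 26.2 CPM in KO replicates 1, 2 and 3, against 34.7, 27.3 and 33.0 CPM in WT replicates 1, 2 and 3. WT replicates 1 and 3 were high, and WT replicate 2 lay among the KO libraries (log2 fold change -0.26, SE 0.14, 95% interval -0.56 to 0.04, edgeR adjusted p = 0.313). With the trend removed the value was -0.04. Atp6ap2, the X-linked gene of the (pro)renin receptor and a proton pump accessory protein (12587801 to 12617049), had 27.6, 24.5 and 23.9 CPM in KO replicates 1, 2 and 3, against 17.7, 26.8 and 23.2 CPM in WT replicates 1, 2 and 3. WT replicate 1 was lowest (log2 fold change 0.17, SE 0.16, edgeR adjusted p = 0.595). The value was 0.01 with the trend removed.

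**Figure D2:**
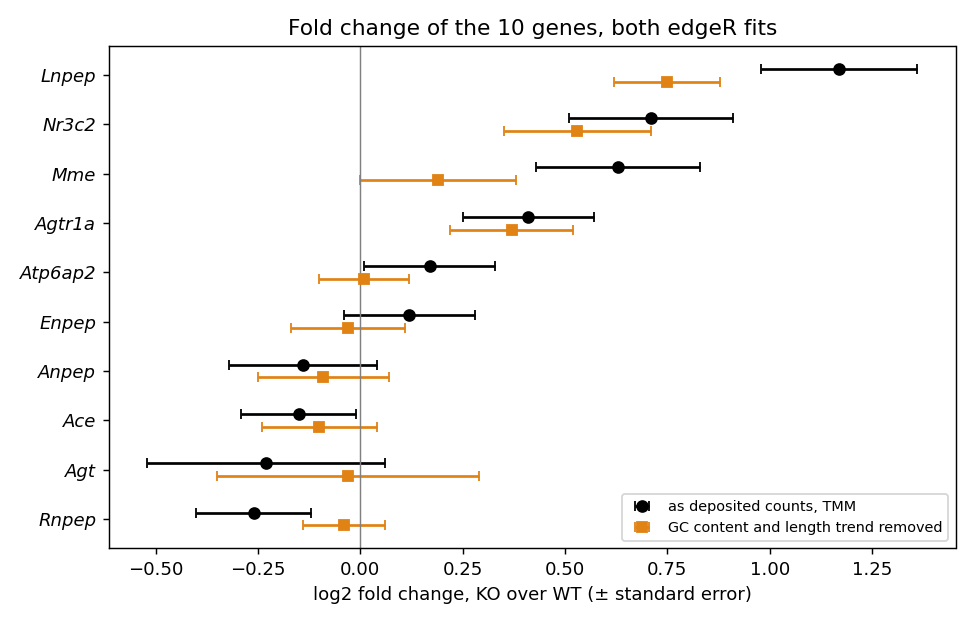
Log2 fold change of KO over WT for the 10 genes (x axis, points with standard errors) from the deposited counts (black circles) and with each library's GC content and length trend removed (orange squares). Lnpep passed in both fits, at 1.17 and 0.75, and Mme was at 0.63 and 0.19 without passing in either.

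Across the 10 genes, the groups did not overlap for 3 that were higher in KO, against 11.8% of all genes, and for none that was lower, against 10.5%, or 22.3% in either direction. An unadjusted edgeR p under 0.05 was reached by 4 that were higher, against 10.2% of all genes, and by none that was lower, against 8.94%, or 19.2% in either direction. DESeq2 called 2 higher and none lower, against 2.68% and 2.03% of all genes, and limma-voom called none. The median log2 fold change was 0.14 as deposited and -0.01 with the trend removed, beside -0.004 and 0.007 over all genes.

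The direction of the 10 genes split by their GC content. The 6 genes with 38.0% to 47.5% GC in their longest transcript, Mme, Lnpep, Atp6ap2, Enpep, Agtr1a and Nr3c2, all had log2 fold changes above 0, from 0.12 to 1.17. The 4 genes with 53.3% to 56.6% GC, Anpep, Ace, Agt and Rnpep, all had values below 0, from -0.26 to -0.14. The same split ran through the whole table, where 71.4% of 6336 genes under 50% GC and 29.0% of 6770 genes above it had values above 0. In the decile of genes lowest in GC content the median was 0.249, and in the decile highest in GC content it was -0.303. With the trend removed, Lnpep, Nr3c2, Agtr1a and Mme were at 0.75, 0.53, 0.37 and 0.19, and the other 6 genes lay between -0.10 and 0.01.

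**Figure D3:**
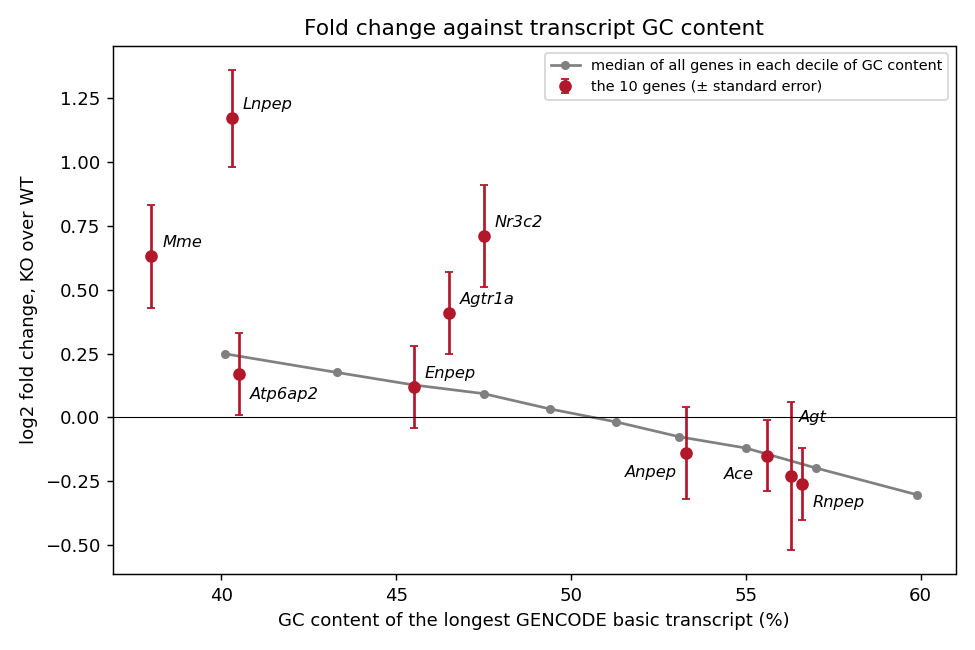
Log2 fold change of KO over WT (y axis) against GC content of the longest transcript in percent (x axis) for the 10 genes (red, with standard errors), with the median of all genes in each decile of GC content (grey). The grey line runs from 0.249 at the low end to -0.303 at the high end, and the 6 genes left of 50% lie above 0 and the 4 right of it below 0.

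Levels were compared between genes per kilobase of the longest transcript, with no test. In KO, Ace led at 20.3 CPM per kb, before Agtr1a at 16.5, Rnpep at 11.6, Atp6ap2 at 10.9, Lnpep at 5.01, Agt at 3.81, Anpep at 3.69, Enpep at 3.48, Nr3c2 at 2.71 and Mme at 1.04. In WT, Ace led at 22.6 CPM per kb, before Rnpep at 13.8, Agtr1a at 12.4, Atp6ap2 at 9.71, Agt at 4.47, Anpep at 4.07, Enpep at 3.21, Lnpep at 2.23, Nr3c2 at 1.66 and Mme at 0.675. Lnpep was in place 5 in KO and place 8 in WT. Neighbours whose KO libraries did not overlap were Agtr1a and Rnpep, Atp6ap2 and Lnpep, and Nr3c2 and Mme; the other neighbours overlapped. In WT they were Ace and Rnpep, Atp6ap2 and Agt, Enpep and Lnpep, and Nr3c2 and Mme.

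**Figure D4:**
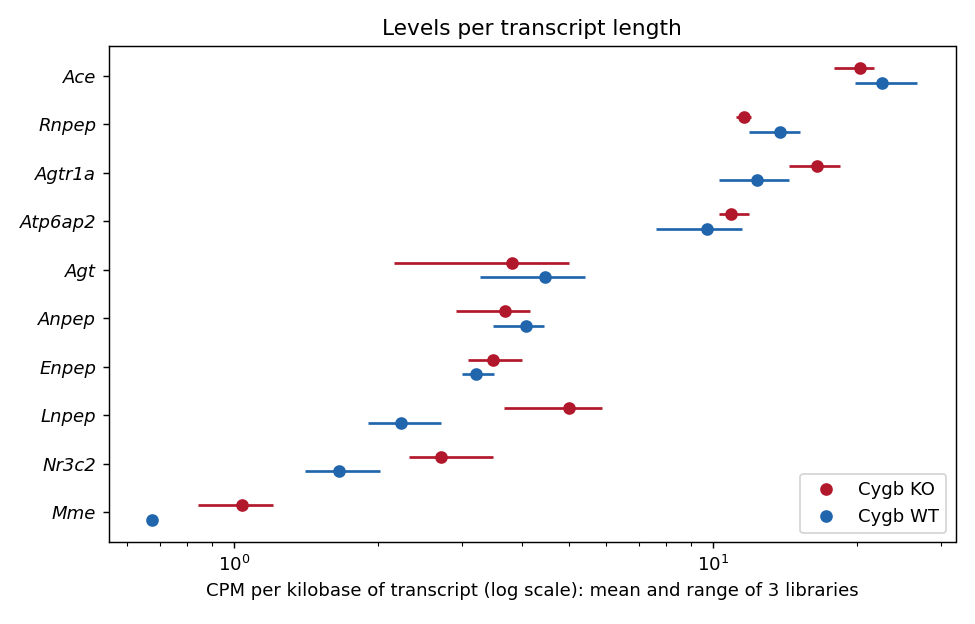
Level of the 10 genes in CPM per kilobase of the longest transcript (x axis, log scale), as the mean (point) and range (line) of 3 libraries, with Cygb KO (red) above Cygb WT (blue) for each gene. The WT range of Lnpep, 1.91 to 2.71, lies below its KO range, 3.67 to 5.86.

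The genes whose levels over the 6 libraries lay closest to Lnpep were picked for that profile, so a higher level in KO was fixed by the choice and is given as a description. Likeness was the root mean square difference of log2 CPM, each gene centred on its own mean. The closest was the gene with Entrez identifier 100043126, at 0.0889, followed by Ppp1r3a at 0.119, Ifi207 at 0.126, Tnpo1 at 0.139 and Zfp965 at 0.140. Ppp1r3a, a glycogen-targeting phosphatase subunit gene, was 2.20-fold higher in KO, and 1.65-fold with the trend removed. Ifi207, an interferon-inducible gene, was at a log2 fold change of 1.24, and at 1.10 with the trend removed. The transcripts of the 4 named genes had 36.2% to 43.4% GC. Among the 10 genes, Mme was closest to Lnpep, at 0.325, in place 244 of all genes.

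Of 32 other renin-angiotensin-aldosterone genes listed, 14 were measured, and none passed edgeR's test. Unadjusted edgeR p was under 0.05 for 1 higher and 1 lower, against 10.2% and 8.94% of all genes. DESeq2 called 1 lower, against 2.03% of all genes, and limma-voom called none. The median log2 fold change of the 14 was -0.06 as deposited, with 5 above 0 and 9 below, and -0.01 with the trend removed. The groups did not overlap for 1 that was higher and 5 that were lower in KO, beside 11.8% and 10.5% of all genes. Renin (Ren1), Agtr2, Agtr1b, the angiotensin-(1-7) receptor gene Mas1 and Hsd11b2 were among those not analysed here. Ece1, which encodes endothelin-converting enzyme, had the smallest p of the list, at 54.0, 74.9 and 56.4 CPM in KO replicates 1, 2 and 3, against 109.8, 86.8 and 85.5 CPM in WT replicates 1, 2 and 3. The groups did not overlap (log2 fold change -0.61, SE 0.16, edgeR adjusted p = 0.0910), the value was -0.55 with the trend removed, and this was the gene that DESeq2 called. Hsd11b1, which regenerates active glucocorticoid, was at 0.48 (SE 0.21, edgeR adjusted p = 0.249) and Arap1 at -0.28 (SE 0.13, edgeR adjusted p = 0.279). They were at 0.44 and -0.12 with the trend removed. Cma1, a mast cell chymase gene, was at 0.672 ± 0.180 CPM in KO and 1.12 ± 0.529 CPM in WT (SD, n = 3 each; log2 fold change -0.75, edgeR adjusted p = 0.333). Its groups overlapped, and the value was -0.69 with the trend removed. It had 12 to 50 counts per library, and 12 was the lowest count of any gene, so its level is poorly measured.

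Downstream of the type 1 receptor, none of 29 signalling genes passed edgeR's test (unadjusted p under 0.05 for 9 higher and none lower; DESeq2 called 1 higher and limma-voom none), and their median was -0.01. Over all genes, that unadjusted p was reached by 10.2% that were higher and 8.94% that were lower, and DESeq2 called 2.68% higher. Rgs2, which shuts off the G protein of the receptor, was at 44.9 ± 8.09 CPM in KO and 24.5 ± 9.60 CPM in WT (SD, n = 3 each; log2 fold change 0.87, SE 0.25, edgeR adjusted p = 0.120) and was the DESeq2 call. It was at 0.73 with the trend removed. The NADPH oxidase subunit gene Ncf1 was at 0.61 (edgeR adjusted p = 0.145), and at 0.70 with the trend removed. Rgs2 and Ncf1 do not stand for the rest of the 29, whose single values with the trend removed are not reported here. That fit called none of the 29, and their median was then 0.04. Ncf1 is known from phagocytes, and of 8 macrophage markers 5 were above 0, with a summed level of 227.8 to 258.4 CPM in KO and 190.4 to 220.7 CPM in WT. No macrophage marker passed edgeR's test (unadjusted p under 0.05 for 2 higher and none lower; DESeq2 and the fit with the trend removed called 1 higher each, and limma-voom none), and their part in the Ncf1 level was not tested. DESeq2 called 2.68% of all genes higher, and the fit with the trend removed 0.179%. For the mineralocorticoid and glucocorticoid receptors' genes and targets, none of 15 measured passed (unadjusted p under 0.05 for 1 higher, Klf9 at 0.57, and 1 lower, Fkbp4 at -0.35; DESeq2 and limma-voom called none). Klf9 was at 0.45 and Fkbp4 at -0.14 with the trend removed. Of the 15, 9 were above 0, and the 4 with values above that of Klf9, chosen after their values were seen, had wide errors. They were the clock gene Per1 at 1.11 (SE 0.74), Zbtb16 at 0.78 (SE 0.54), Tsc22d3 at 0.70 (SE 0.37) and Fkbp5 at 0.68 (SE 0.59), with edgeR adjusted p-values of 0.474, 0.483, 0.359 and 0.573. Nr3c1, the glucocorticoid receptor gene, was at 0.28 (SE 0.13, edgeR adjusted p = 0.272) and at -0.02 with the trend removed.

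Relatives of the peptidases gave no edgeR call either. Of the other M1 aminopeptidases, the zinc enzyme family of Lnpep, Enpep, Anpep and Rnpep, 5 of 6 listed were measured. Unadjusted edgeR p was under 0.05 for none higher and 2 lower, the latter against 8.94% of all genes. DESeq2 and limma-voom called none. Rnpepl1 was at -0.44 (SE 0.15), Aopep at -0.39 (SE 0.14) and Erap1, which trims antigenic peptides, at 0.31 (SE 0.15), with edgeR adjusted p-values of 0.158, 0.180 and 0.270. With the trend removed Rnpepl1 was at -0.06, Aopep at -0.39 and Erap1 at 0.03. Of 8 other neprilysin and converting enzyme relatives 3 were measured, with unadjusted p under 0.05 for none higher and 1 lower, Ece1, which was also the 1 DESeq2 call. Over all genes, 8.94% were lower at that unadjusted p, and DESeq2 called 2.03% lower. Ece2 was at 0.17 (edgeR adjusted p = 0.638), and at 0.28 with the trend removed.

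All of the vesicle and pump partners listed for Lnpep and Atp6ap2 were measured. Of 12 genes of the insulin-responsive vesicles in which Lnpep travels, none passed edgeR's test, and the median was -0.08. Unadjusted p was under 0.05 for 3 higher and 2 lower, against 10.2% and 8.94% of all genes. DESeq2 called 1 higher, against 2.68% of all genes, and limma-voom called none. Tnks, which encodes a tankyrase that binds the Lnpep protein, was at 56.8 ± 8.46 CPM in KO and 38.0 ± 7.14 CPM in WT (SD, n = 3 each; log2 fold change 0.58, edgeR adjusted p = 0.108) and was the DESeq2 call, Rab10 was at 0.29 and Scamp3 at -0.41. Tnks was at 0.33, Rab10 at 0.15 and Scamp3 at -0.15 with the trend removed. Of 16 proton pump subunit genes, none passed (unadjusted p under 0.05 for none; no DESeq2 or limma-voom call), and the 3 of smallest p were Atp6v0c at -0.24, Atp6v1a at 0.26 and Atp6v1f at -0.17. These 3 were at -0.02, 0.10 and -0.03 with the trend removed.

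**Figure D5:**
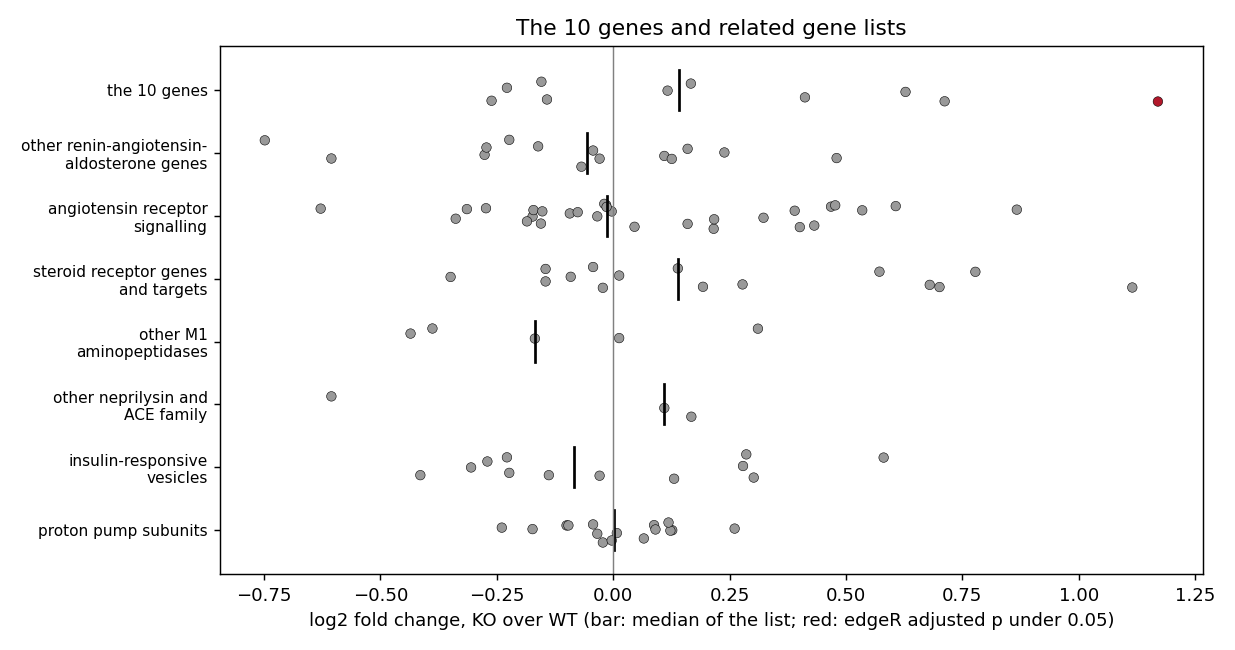
Log2 fold change of KO over WT (x axis) for each measured gene of the 10 and of 7 related lists (rows), with a bar at each list's median; vertical scatter within a row only separates points, and red marks genes past the edgeR threshold. Lnpep, at 1.17, is the 1 red point.

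Antisense or divergent transcripts share annotated exon bases with Ace (267), Nr3c2 (155) and Rnpep (368). As the use of strand is not given in the sources used here, reads from these pairs cannot be told apart.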

How the data were processed

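The authors deposited 1 table of raw counts per gene for 6 libraries, each from an individual mouse. Per the submitters' processing notes, mm10 and DESeq2 were used; aligner, counter, annotation and strand setting are not named. No gene had fewer than 12 counts in any library, so a gene low in 1 library may be missing. KO was compared with WT, without covariates, by the robust quasi-likelihood test of edgeR 4.0.16 (R 4.3.3) with TMM factors. Its low-count filter removed 0% of 13384 genes. The p-values are two-sided, and the Benjamini-Hochberg adjustment covers every gene tested (threshold 0.05). Alternatives were other size factors and filters, edgeR without robust estimation, a threshold of 0.1, DESeq2 1.42.0, limma-voom (limma 3.58.1), a replicate block, each library left out, and splines with 4 degrees of freedom on GC content and length (GENCODE M21, longest basic transcript, 97.9% of genes). Named were the 10 genes, the 3 of smallest p in each list, 8 angiotensin and steroid genes chosen by role where measured, and the 5 genes closest to Lnpep, except that some of these are not reported here. The 10 genes and all lists were chosen with earlier results of these data known. Fits were tested on simulated data. The edgeR p-values rest on the spread between these mice, with each gene's variance drawn toward a trend over all genes. Library depth limits their precision for genes of low counts.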

Additional observations from a re-analysis of the deposited data

How the results depend on the processing

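Genes higher and lower in KO numbered 12 and 3 in the edgeR test. The count of higher genes was 6 among genes with a mean of at least 5 CPM and 7 without robust estimation; limma-voom called 5 lower. DESeq2 called 352 higher and 266 lower, a threshold of 0.1 gave 193 and 125, and the GC content and length correction 24 and 18, 11 of the 15 calls among them. Leaving out single libraries gave 0 to 971 higher and 0 to 855 lower, with 0 higher without KO replicate 1 or KO replicate 3, 3 without WT replicate 1, 6 without WT replicate 3, and 971 without WT replicate 2. Of the 10 genes, 1 was called higher, 2 with DESeq2, and 0 with limma-voom, without robust estimation, with the 5 CPM minimum, or with the block and the GC content and length correction together; single omissions gave 0 to 1. The cause was not tested. Same-numbered KO and WT libraries deviated from their group means with correlations of -0.121, -0.0759 and -0.149. With 3 libraries per group, whose deviations also carry the GC content trends, these values cannot decide whether replicate numbers pair mice. The replicate block gave 131 higher and 87 lower, with the GC content and length correction 18 and 16, and Lnpep passed the block alone. Signs turned for Enpep under the correction (-0.0326; -0.0359 with the block), and without KO replicate 1 for Agt (0.0568) and Anpep (0.0023); single omissions gave -0.47 to 0.0568 for Agt and -0.25 to 0.0023 for Anpep. Depth limits Agt and Mme most, at 100 to 248 and 134 to 220 counts per library.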
